A study of Mus musculus with 31 samples.

Results

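The muscarinic acetylcholine receptors are a family of 5 G protein-coupled receptors, encoded in the mouse by Chrm1, Chrm2, Chrm3, Chrm4 and Chrm5. All 5 genes were found among the 55421 mouse genes of the count table. Chrm1 to Chrm4 were taken by their names in the authors' normalized table and Chrm5, which that table does not list, by its Ensembl identifier. They were read in 18 single lateral olivocochlear (LOC) neurons of the lateral superior olive and 13 single medial olivocochlear (MOC) neurons of the trapezoid body's ventral nucleus. The cells came from acute brainstem slices of ChAT-IRES-Cre; tdTomato mice, in which Cre made from the choline acetyltransferase gene marks cholinergic cells in red. Both groups share this background, the labels call the genotype wild-type, and no age is given. Each neuron was recorded by patch clamp, its contents were aspirated, and its cDNA was amplified by Smart-seq2, a method for full-length polyadenylated RNA.

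The receptors fall into a pair of classes by the G protein they use. The products of Chrm1, Chrm3 and Chrm5 couple to Gq, which activates phospholipase C, releases calcium from internal stores and closes the potassium channels of the M-current. Those of Chrm2 and Chrm4 couple to Gi/o, which lowers cyclic AMP and, through the G protein's beta and gamma subunits, opens GIRK potassium channels and reduces transmitter release. On many cholinergic neurons the Gi/o-coupled receptors sense the cell's own transmitter, and olivocochlear neurons are themselves cholinergic.

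The 5 receptors are paralogs, so their sequences decide whether reads of one can be mistaken for another. The 75-base coding stretch in which they are most alike, a stretch of 1 read length, is given below from GENCODE M21 transcripts on GRCm38, 5′ to 3′ along each gene, with the bases shared by all 5 genes in capitals.
Chrm1: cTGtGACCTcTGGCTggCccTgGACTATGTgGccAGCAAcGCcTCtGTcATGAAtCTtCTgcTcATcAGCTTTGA
Chrm2: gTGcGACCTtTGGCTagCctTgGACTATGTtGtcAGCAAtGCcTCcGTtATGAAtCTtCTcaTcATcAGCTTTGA
Chrm3: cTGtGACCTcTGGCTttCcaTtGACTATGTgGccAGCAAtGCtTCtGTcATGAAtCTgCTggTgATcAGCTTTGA
Chrm4: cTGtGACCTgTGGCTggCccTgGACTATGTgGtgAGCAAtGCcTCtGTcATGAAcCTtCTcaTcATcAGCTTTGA
Chrm5: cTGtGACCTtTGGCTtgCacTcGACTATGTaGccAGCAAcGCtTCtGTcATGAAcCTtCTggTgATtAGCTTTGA
They lie at chr19:8678223-8678297 (plus strand), chr6:36523494-36523568 (plus), chr13:9878508-9878582 (minus), chr2:91927557-91927631 (plus) and chr2:112480390-112480464 (minus). All 5 stretches are within the coding sequence, at bases 291 to 365 of that of Chrm1, for example. They share 54 of 75 bases. In these stretches Chrm1 and Chrm4, the closest pair, differ at 7 bases, and Chrm2 and Chrm5, the most distant, at 17. Some pairs come closer elsewhere in the coding sequence. Over all 75-base windows the fewest differing bases ran from 7 (Chrm1 and Chrm4) to 15 (Chrm2 with Chrm3 or Chrm5). Over whole transcripts the longest run of identical bases shared by any pair was 29, between Chrm1 and Chrm4. A full read of 75 bases can therefore not match a pair of these genes exactly.

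The genes differ in what the annotation covers. Chrm1 (ENSMUSG00000032773) spans chr19:8663789-8683587 on the plus strand with 6487 exonic bases. Chrm2 (ENSMUSG00000045613) spans chr6:36388084-36528414 on the plus strand with 6053 exonic bases, and Chrm3 (ENSMUSG00000046159) chr13:9875486-10360847 on the minus strand with 6253. The models of Chrm4 (ENSMUSG00000040495, chr2:91927249-91928688, plus) and Chrm5 (ENSMUSG00000074939, chr2:112479171-112480769, minus) hold 1440 and 1599 bases, which is the coding sequence alone. RefSeq's models of the same assembly span 7647 bases for Chrm4 and 57629 for Chrm5, so reads of untranslated exons may not have been counted for this pair. On the opposite strand, 9330158H04Rik, a long noncoding RNA, shares 142 exonic bases with Chrm2, and its reads there cannot be told apart in these unstranded libraries. It had 213 reads in the LOC and 59 in the MOC libraries. Gm22820, a small RNA gene, shares 329 exonic bases with Chrm1 on the opposite strand and had 0 reads. Mir490 within Chrm2 and the 6 genes within the span of Chrm3 (Gm47406, Gm47411, Gm47405, 9330159N22Rik, Gm47404 and Gm26861) share 0 exonic bases with them and had at most 20 reads in a group.

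The libraries held 356412 to 1404896 counts in LOC and 598028 to 2627174 in MOC. No label says which animal a cell came from, and each group therefore counts as 1 sample. No difference was tested, and SDs are spreads between cells. A gene with 0 counts in a cell could have had up to 3, which is between 1.14 and 8.42 counts per 1000000 counts (CPM). Reads of the cholinergic markers Chat, Slc18a3 and Slc5a7 numbered at least 10 in 14 LOC and 8 MOC libraries. In 4 libraries they numbered at most 1, against the labelled cell type, namely LOC cells 14 and 16 and MOC cells 8 and 13. Reads of the tdTomato reporter, found in 20 of the 31 libraries, numbered 4, 0, 93 and 0 in these 4. Receptor differences that rest on these libraries are given with and without them. Joint detection, leading receptors and the genes following a receptor are given with them only. Levels per kilobase are given without LOC cell 14 or MOC cell 13 alone. Differences were sorted by a size rule. It called a gene for a group if the ratio of summed CPM reached 2, the mean log2(CPM + 1) exceeded that of the other group by 1 or more, and 25% or more of the group's cells held a read. Of 17754 measured genes, 6.07% met it in LOC and 5.67% in MOC.

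Every one of the 31 cells held a read of at least 1 muscarinic gene, but 12 cells had no member with 5 reads or more. Chrm1 and Chrm2 made up most of the reads, without regard to gene length. Of 965 muscarinic reads in LOC, 52.6% were Chrm1 and 44.4% Chrm2, and of 984 in MOC, 47.5% were Chrm1 and 34.5% Chrm2. The share of Chrm1 in LOC rested on LOC cell 14, which held 479 of its reads. Without the 4 libraries poorest in cholinergic reads, Chrm1 had 29 reads and Chrm2 385 in LOC, and 185 and 339 in MOC. Chrm2 was spread over more cells than Chrm1, with 5 reads or more in 14 against 7, and 3 cells held 92.7% of the reads of Chrm1. Chrm2 was uneven too, with 27.8% of its LOC reads in LOC cell 1 and 32.2% of its MOC reads in MOC cell 10. Of the 5 genes, 1 was called by the size rule, Chrm3 in MOC, and 0 in LOC. That call rested on 1 library, MOC cell 13.

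**Figure D1:**
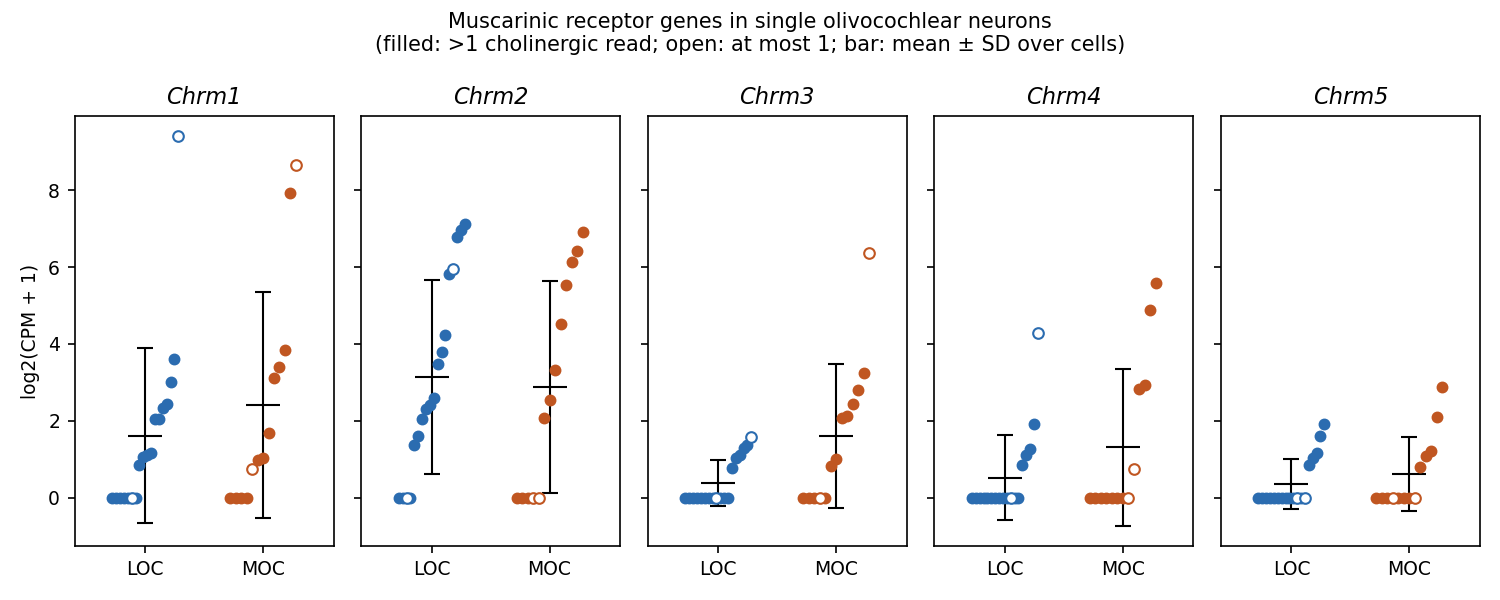
Level of each receptor gene as log2(CPM + 1) in 18 LOC (blue) and 13 MOC (orange) cells, 1 point per cell in ascending order, with the mean ± SD over cells as a bar and libraries with at most 1 cholinergic read as open circles. Chrm2 forms a continuous range up to about the same height in both groups, while the highest points of Chrm1, at 680 CPM in LOC against 404 in MOC, and of Chrm3, at 82.0 CPM, are open circles.

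Chrm2 encodes M2, the Gi/o-coupled receptor that slows the heart and acts as an autoreceptor on many cholinergic terminals. In LOC cells it ran from 0 to 138 CPM with a median of 4.68, and in MOC cells from 0 to 120 CPM with a median of 4.88. In LOC, 14 of 18 cells held reads (77.8%, with an exact 95% interval of 52.4 to 93.6), while in MOC 8 of 13 did (61.5%, 31.6 to 86.1). The highest LOC cells were cell 1 at 138 CPM, cell 13 at 124, cell 12 at 108, cell 14 at 61.0 and cell 4 at 55.6. The other 13 LOC cells lay at or below 17.7 CPM, so that high and low cells occurred within the group.

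High and low cells occurred among the MOC cells as well. MOC cell 10 had 120 CPM of Chrm2, cell 6 had 84.4, cell 3 had 69.4 and cell 1 had 45.3. Cells 5, 9, 12 and 11 lay between, at 21.7, 9.07, 4.88 and 3.18 CPM, and cells 2, 4, 7, 8 and 13 had 0. The groups overlapped over nearly their whole range. Summed counts gave 30.0 CPM in LOC (95% Poisson interval 27.2 to 33.002) and 24.9 CPM in MOC (22.3 to 27.7). Cell means of log2(CPM + 1) were 3.14 ± 2.52 (SD, n = 18 cells) in LOC and 2.88 ± 2.76 (n = 13 cells) in MOC. The difference of 0.26 is small beside either SD. It was -0.45 in the libraries with at least 10 cholinergic reads, so its sign depended on the libraries used.

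Chrm2 was read mostly in libraries that also held cholinergic transcripts. At least 5 reads of it were present in 12 of the 22 libraries with 10 or more cholinergic reads and in 2 of the 9 others. Its level was 33.4 CPM (30.99 to 36.0) in the former and 8.59 CPM (6.50 to 11.1) in the latter. LOC cell 14 held 43 of the 57 reads in the latter, and 2.36 CPM (1.29 to 3.96) was left without it. Across the 31 cells Spearman's rho between Chrm2 and the summed cholinergic CPM was 0.47, and with the library total it was 0.04. The points share the amplification and the varying admixture of glial RNA described below. High cholinergic signal did not always go with Chrm2. LOC cell 15, with 1742 CPM over the 3 cholinergic genes, had 4.32 CPM of Chrm2, and LOC cell 3, with 1417 CPM, had 3.14.

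Chrm4 encodes M4, the other Gi/o-coupled receptor, which in the striatum restrains cholinergic interneurons. In LOC cells it ran from 0 to 18.5 CPM and in MOC cells from 0 to 47.4 CPM, with a median of 0 in both. Reads were found in 5 of 18 LOC cells (27.8%, 9.69 to 53.5) and 5 of 13 MOC cells (38.5%, 13.9 to 68.4). MOC cell 10 had 43 reads (47.4 CPM), MOC cell 1 had 29 (28.6 CPM), MOC cell 2 had 6 and MOC cell 12 had 5. In LOC, cell 14 held 13 of the 18 reads and no other cell more than 2.

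Most MOC signal of Chrm4 was thus in a pair of cells that were also among the 4 MOC cells highest in Chrm2 and held 689 and 283 cholinergic reads. Summed counts gave 1.26 CPM in LOC (0.75 to 1.995) against 6.16 in MOC (4.91 to 7.63). The means of log2(CPM + 1) were 0.52 ± 1.10 and 1.31 ± 2.04, a difference of -0.78 that did not meet the size rule. It met the rule, at -1.15, without the 4 libraries with at most 1 cholinergic read, a restriction chosen after seeing the data. There the levels were 0.38 CPM in LOC against 7.22 in MOC. It also met the rule, at -1.45, in the libraries with at least 10 cholinergic reads, where 3 of 8 MOC and 0 of 14 LOC cells held 5 reads or more. Without LOC cell 14 alone the difference was -1.005, which meets the rule, and 0.37 CPM was left in LOC. Over all libraries, 3.22 CPM was left in MOC without MOC cell 10. That cell held 43 of the 83 MOC reads without the 4 libraries, and of the 78 with at least 10 cholinergic reads. Neither restricted difference was recomputed without it.

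The sum of both Gi/o-coupled genes was alike in the groups, at 31.3 CPM in LOC (28.4 to 34.3) against 31.02 in MOC (28.1 to 34.1). The means were 3.30 ± 2.43 and 3.34 ± 2.67. The difference of -0.04 lay on both sides of 0 when single libraries were left out (-0.32 to 0.30), and was -0.56 without the 4 libraries poorest in cholinergic reads.

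Chrm1 encodes M1, the Gq-coupled receptor that predominates in the cerebral cortex and hippocampus. In LOC cells it ran from 0 to 680 CPM with a median of 1.12, and in MOC cells from 0 to 404 CPM with a median of 1.06. LOC cell 14 held 479 of the 508 LOC reads (94.3%), and the next LOC cell had 10. In MOC, cell 13 held 281 of 467 reads (60.2%), cell 5 held 144 and cell 7 held 20. The pattern was therefore a low level in most cells and a very high one in 3.

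Reads of Chrm1 were present in 11 of 18 LOC cells (61.1%, 35.7 to 82.7) and 9 of 13 MOC cells (69.2%, 38.6 to 90.9), and 5 reads or more in 2 and 5. Summed counts gave 35.6 CPM in LOC (32.6 to 38.9) against 34.2 in MOC (31.2 to 37.5), while the means of log2(CPM + 1) were 1.62 ± 2.27 and 2.42 ± 2.94. The difference of -0.80 did not meet the size rule. Without LOC cell 14 the LOC level was 2.14 CPM and the difference -1.26, which meets the rule in MOC. Without MOC cell 13 the MOC level was 14.4 CPM. Without the 4 libraries poorest in cholinergic reads the levels were 2.22 CPM in LOC (1.49 to 3.19) against 16.1 in MOC (13.9 to 18.6), with a difference of -0.77. There, MOC cell 5 held 144 of the 185 MOC reads.

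The 3 cells high in Chrm1 differed in their neuronal markers but were all low in oligodendrocyte markers. LOC cell 14 had 0 reads of Chat, Slc18a3 and Slc5a7, 650 CPM of Slc17a7, a vesicular glutamate transporter, and 0 reads of all 4 inhibitory neuron markers. MOC cell 13 had 1 cholinergic read, 413 CPM of Slc17a7 and 10.1 CPM over the inhibitory list. Both were the lowest of their group in the 8 oligodendrocyte markers, at 22.7 and 358 CPM against group medians of 31935 and 43565 CPM. MOC cell 5 was low in the oligodendrocyte markers too, at 1135 CPM. Unlike the other cells, it had 925 CPM of Chat, 518 CPM of Slc5a7 and 6.69 CPM of Slc17a7. Its Chrm1 stood at 241 CPM and its Chrm2 at 21.7 CPM. The part of these other markers in the Chrm1 levels of the 3 cells was not tested.

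**Figure D2:**
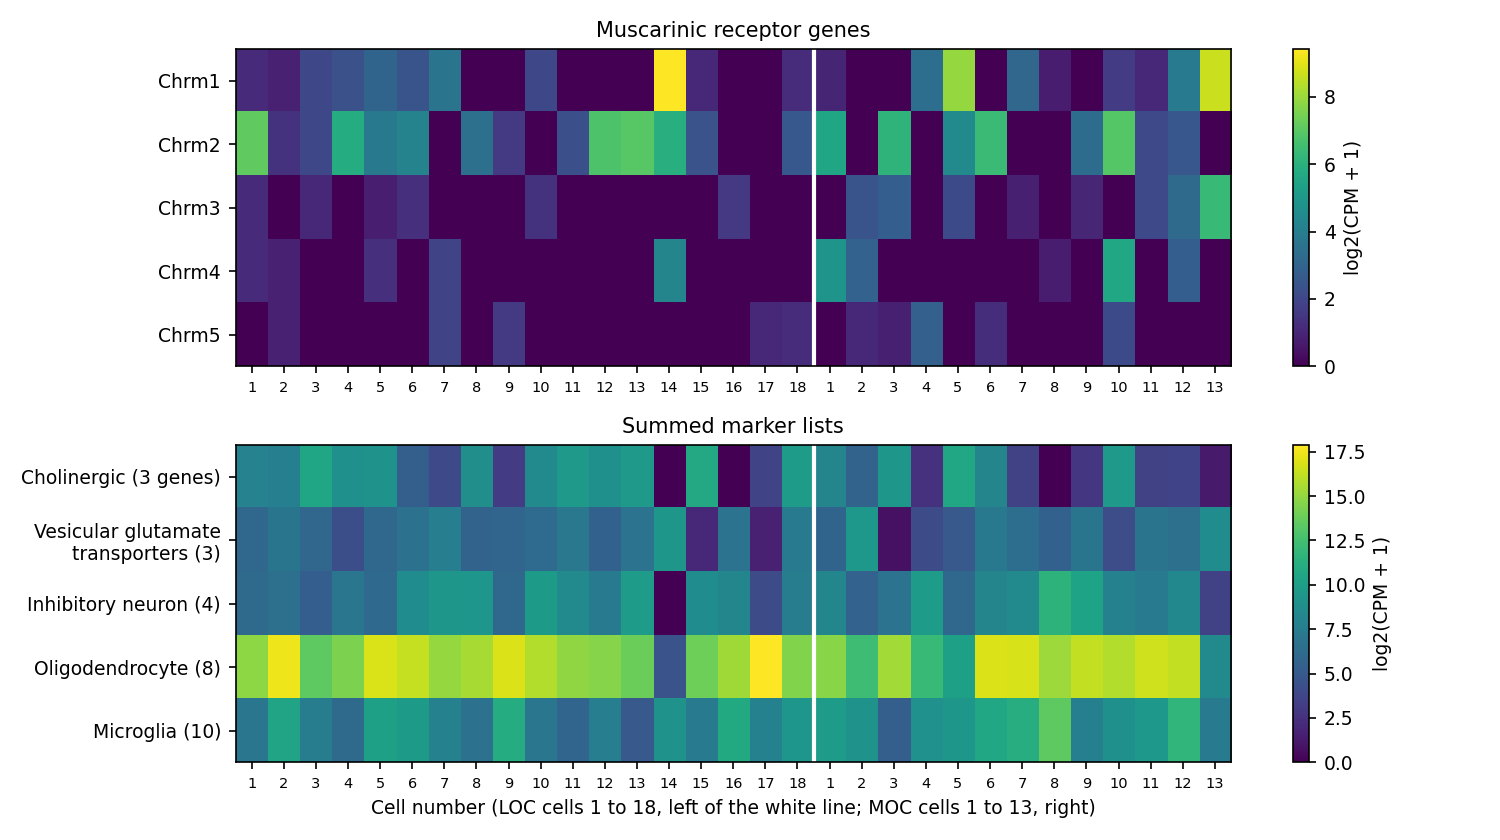
Upper panel: log2(CPM + 1) of the 5 receptor genes in each cell. Lower panel: the same for the summed reads of 5 marker lists, on a colour scale of its own. LOC cell 14 and MOC cell 13 are bright for Chrm1 and dark in the cholinergic and oligodendrocyte lists. MOC cell 5 is bright for Chrm1 and for the cholinergic list, with 1135 CPM in the oligodendrocyte list.

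Chrm3 encodes M3, the Gq-coupled receptor of smooth muscle and glands that is also found in brain neurons. In LOC cells it ran from 0 to 1.97 CPM, with exactly 1 read in each of 6 cells and 0 in the other 12. In MOC cells it ran from 0 to 82.0 CPM with a median of 1.008, and 57 of 84 reads (67.9%) were in cell 13. MOC cell 3 had 8 reads (6.03 CPM), cell 12 had 7 (8.54 CPM) and cell 2 had 4 (4.46 CPM). In all, 6 MOC cells lay above the highest LOC cell, and 5 had 0.

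Summed counts of Chrm3 gave 0.42 CPM in LOC (0.15 to 0.92) against 6.16 in MOC (4.91 to 7.63). The means were 0.40 ± 0.60 and 1.61 ± 1.87, and the difference of -1.21 met the size rule in MOC. Without MOC cell 13 the level in MOC was 2.09 CPM and the difference -0.81, so the rule was no longer met. The same held without the 4 libraries poorest in cholinergic reads, at 0.38 CPM in LOC (0.12 to 0.89) against 2.35 in MOC (1.55 to 3.42), with a difference of -0.97. Cells with a read made up 33.3% in LOC (13.3 to 59.0) and 61.5% in MOC (31.6 to 86.1), and these intervals overlap.

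Chrm5 encodes M5, the Gq-coupled receptor best known from midbrain dopamine neurons. It had 1 read in each of 5 LOC cells, 4 reads in MOC cell 4, 3 in MOC cell 10 and 1 in each of 3 other MOC cells. No cell held 5 reads. Summed counts gave 0.35 CPM in LOC (0.11 to 0.82) against 0.73 in MOC (0.35 to 1.35), and the means of 0.37 ± 0.64 and 0.62 ± 0.96 differed by -0.26. The size rule was not met, except with the log2 ratio of summed counts in place of the means (-1.06).

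Taking the 3 Gq-coupled genes together, all 13 MOC cells and 14 of 18 LOC cells (77.8%) held a read, and 5 reads or more were found in 8 MOC and 3 LOC cells. The sums were 36.4 CPM in LOC (33.3 to 39.7) against 41.1 in MOC (37.8 to 44.7). Cell means of log2(CPM + 1) were 2.04 ± 2.16 in LOC and 3.34 ± 2.55 in MOC. This difference of -1.31 did not meet the size rule because the sums were alike, with LOC cell 14 holding 92.3% of the LOC reads. Without the 4 libraries poorest in cholinergic reads the sums were 2.99 CPM in LOC (2.13 to 4.09) against 19.3 in MOC (16.9 to 22.03). The difference of -1.46 then met the rule, as did -1.58 in libraries with at least 10 cholinergic reads (2.71 and 21.3 CPM). MOC cell 5 held 144 reads of Chrm1 among the 222 and 193 Gq-coupled MOC reads of these settings. Neither difference was recomputed without that cell. Over all libraries, leaving out single ones moved the difference between -1.74 and -0.84. The -1.74 was without LOC cell 14, where 2.95 CPM was left in LOC and the rule was met.

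Levels of different receptors can be set against each other only per length of the gene model. Per kilobase of exon, the summed LOC counts ran from Chrm1 at 5.49 CPM, through Chrm2 at 4.96, Chrm4 at 0.88 and Chrm5 at 0.22, to Chrm3 at 0.07. In MOC the order was Chrm1 at 5.28, Chrm4 at 4.28, Chrm2 at 4.11, Chrm3 at 0.99 and Chrm5 at 0.46. Among measured genes with a length, Chrm1 and Chrm2 lay between percentiles 60.4 and 65.5 in both groups, and Chrm3 lay at percentile 3.31 in LOC and 33.5 in MOC. These places depended on single libraries. Without LOC cell 14, Chrm1 in LOC was at 0.33 CPM per kilobase and percentile 17.4, behind Chrm2 at 4.69, and Chrm4 in LOC was at 0.26. Without MOC cell 13, Chrm1 in MOC was at 2.22 and percentile 49.2, behind Chrm4 at 4.51 and Chrm2 at 4.33, and Chrm3 was at 0.33. By cell means of log2(CPM per kilobase + 1), Chrm2 led in both groups, at 1.602 ± 1.66 in LOC and 1.54 ± 1.69 in MOC. Chrm1 followed at 0.71 ± 1.56 and 1.25 ± 2.02, and Chrm4 stood at 0.43 ± 0.95 and 1.15 ± 1.83. Chrm5 was at 0.27 ± 0.48 and 0.47 ± 0.75, and Chrm3 at 0.09 ± 0.14 and 0.65 ± 1.04. In this order of cell means each pair of neighbours differed by less than the larger of their SDs. The levels of Chrm4 and Chrm5 rest on the coding-only models.

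The receptor that led within a cell depended on the scale. Of the 18 cells with at least 10 muscarinic reads, Chrm2 had the most CPM per kilobase of exon in 9, Chrm1 in 4, Chrm4 in 4 and Chrm5 in 1. By reads alone, which favour the longer models, Chrm2 led in 11, Chrm1 in 6 and Chrm4 in 1. In 9 of the 18 the gene leading by reads gave at least 90% of the muscarinic reads. In LOC, Chrm2 led in 6 of 7 such cells on either scale, and in LOC cells 12 and 13 it was the single receptor read, with 74 and 96 reads. In MOC, Chrm4 led per kilobase in 4 of 11 cells, Chrm2 and Chrm1 in 3 each and Chrm5 in 1, while by reads Chrm2 and Chrm1 led in 5 each. The 4 cells whose leader changed were MOC cells 1, 10 and 12, to Chrm4, and MOC cell 4, to Chrm5 with 4 reads. In MOC cell 10 Chrm4 had 32.9 CPM per kilobase against 19.9 of Chrm2. The leads of Chrm4 in MOC cells 2 and 12 rested on 6 and 5 reads, and all its leads on the coding-only model.

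**Figure D3:**
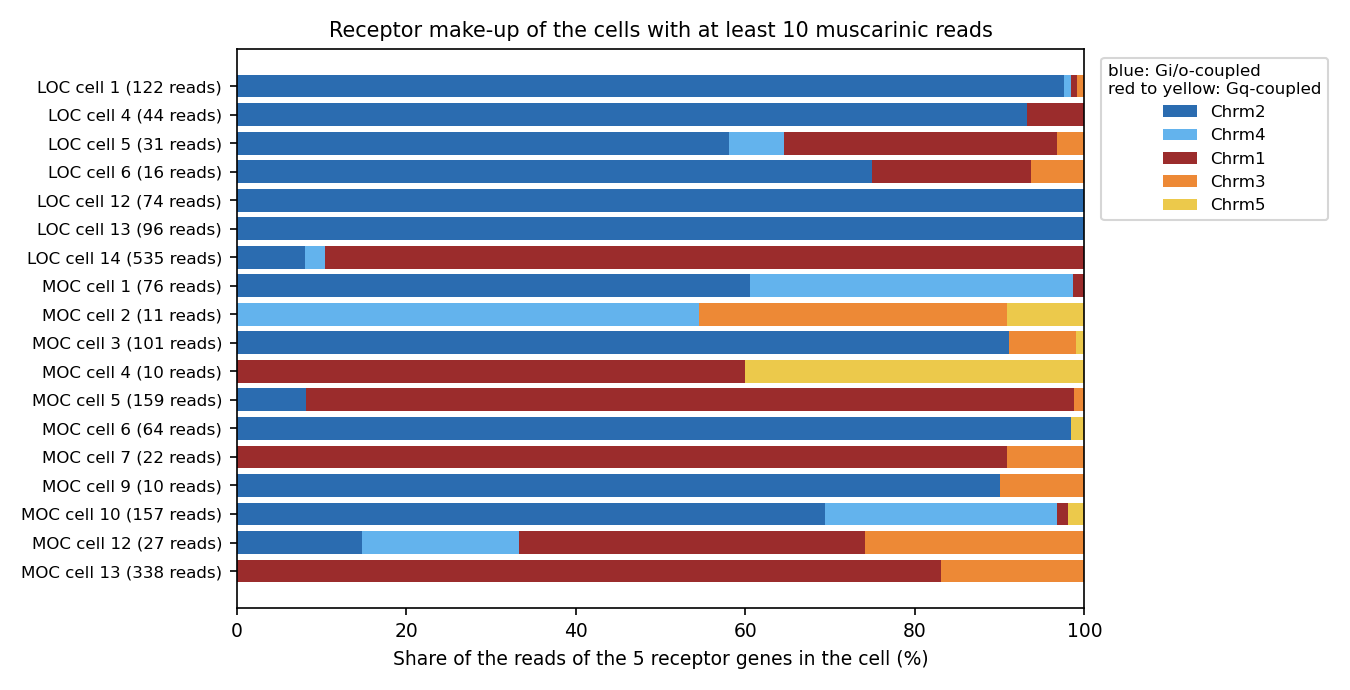
Share of each receptor gene among the muscarinic reads of a cell, not divided by gene length, for the 18 cells with at least 10 such reads, with Gi/o-coupled genes in blue and Gq-coupled genes in red to yellow. LOC bars other than that of cell 14 are mostly blue, with at most 35.5% of Gq-coupled reads, and MOC bars are divided between cells that are mostly blue and cells that are mostly red.

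The share of cells with Chrm2 was about the same among cells with Chrm1 as among all cells. Of the 7 cells with 5 reads or more of Chrm1, 3 reached 5 for Chrm2 (42.9%), beside 14 of all 31 cells (45.2%). With a minimum of 5 reads, 11 of the 31 cells held Chrm2 without Chrm1, 4 held Chrm1 without Chrm2, 3 held both (LOC cells 5 and 14 and MOC cell 5) and 13 held neither. Chrm4 reached 5 reads in 5 cells, of which 3 also reached it for Chrm2. Across the 31 cells Spearman's rho between Chrm1 and Chrm2 was -0.10, and the rho of any pair of receptors lay between -0.32 and 0.26. In counts as sparse as these such values describe no pattern.

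The genes whose CPM followed a receptor most closely over the 31 cells were taken from 10973 genes read in at least 50% of cells. For Chrm2 they were Cntnap2, a neurexin-like adhesion protein (rho 0.80), Abcb9, a peptide transporter of lysosomes (0.72), and Atp8a2, a phospholipid flippase (0.70). For Chrm1 they were Fbxo8 (0.71), Entpd5 (0.71) and Grin2b, the NMDA receptor subunit GluN2B (0.70). The values for Chrm3 (Mad1l1, Slk and Plekha4, 0.62 to 0.67), Chrm4 (Klf5, Myo16 and Cachd1, 0.62 to 0.69) and Chrm5 (Rpl38, Tmsb10 and Atp5mf, 0.60 to 0.64) rest on 14, 10 and 10 cells with a read. All these values of rho are the highest of many over cells that share depth and admixture, and carry no test. They were not recomputed without the libraries poorest in cholinergic reads.

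Genes of the signalling chain downstream of Gq were present in both groups. Of 15 measured genes in this list, the size rule called 1 for LOC and 1 for MOC, against the 6.07% and 5.67% of all genes. Their median difference was 0.07, beside -0.07 over all measured genes. Gnaq, the alpha subunit of Gq, had 98.3 CPM in LOC against 49.1 in MOC, with means that differed by 1.87. It reached the ratio of 2 narrowly and did not meet the rule in 20 of the 40 alternatives. Its close relative Gna11 had 116 and 81.0 CPM. Plcb3, a phospholipase C beta isoform, had 7.93 CPM in LOC against 32.6 in MOC (difference -1.65, and -1.995 without the 4 libraries poorest in cholinergic reads). Plcb3 overlaps Ppp1r14b on the other strand, so reads may be shared. Plcb4 had 99.0 and 90.1 CPM, and Itpr1, the calcium release channel opened by inositol trisphosphate, 193 and 138 CPM.

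None of the 4 M-current genes met the size rule over all libraries, and their median difference was 0.16. Kcnq3, a subunit of these channels, had 49.9 and 25.4 CPM. LOC cell 14 held 48.0% of the LOC reads of Kcnq3, and 27.3 CPM was left without it. Kcnq5, another subunit, had 6.87 CPM in LOC, of which LOC cell 14 held 63.3%, against 7.04 in MOC. Without that cell 2.66 CPM was left in LOC, and Kcnq5 met the rule in MOC.

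On the Gi/o side the rule called 1 of 19 measured genes for LOC and 1 for MOC, against the 6.07% and 5.67% of all genes. The median difference was 0.17. Gnaz, the alpha subunit Gz, had 91.0 CPM in LOC and 36.6 in MOC, with a difference of 1.75. MOC cell 3 held 54.9% of its MOC reads, and Rsph14 overlaps it on the other strand. Adcy9, an adenylyl cyclase, had 4.28 and 20.5 CPM, with 63.2% of the MOC reads in MOC cell 13. Without that cell 7.96 CPM was left in MOC and the rule was not met. Gnao1, the alpha subunit Go, which is abundant in neurons, stood at 281 and 203 CPM, with reads in every one of the 31 cells.

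None of the 4 GIRK genes met the rule over all libraries, with a median difference of -0.25. Kcnj3 (GIRK1) had 38.6 CPM in LOC against 21.05 in MOC, and its difference of 1.37 came with a ratio under 2. Kcnj9 (GIRK3) had 62.2 and 41.9 CPM and Kcnj6 (GIRK2) 19.99 and 8.14 CPM. Single cells weighed on all 3. MOC cell 13 held 52.3% of the MOC reads of Kcnj3. Without that cell 10.6 CPM was left in MOC, and Kcnj3 met the rule in LOC. MOC cell 4 held 55.2% of the MOC reads of Kcnj9, with 19.7 CPM left in MOC without it. LOC cell 14 held 54.4% of the LOC reads of Kcnj6, with 9.59 CPM left in LOC without it. Kcnj5 (GIRK4) had 0 reads in LOC, which over the group allows up to 0.21 CPM, and 0.59 CPM in MOC.

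Of 17 kinases, arrestins and RGS proteins that end G protein signalling, the rule called 1 for LOC and 0 for MOC. Of all genes it called 6.07% and 5.67%. The median difference of the 17 was 0.22. Grk3, a kinase that desensitizes occupied receptors, had 47.7 CPM in LOC (44.2 to 51.4) against 7.99 in MOC (6.56 to 9.64). It was read in 16 of 18 LOC and 10 of 13 MOC cells. Its means were 4.17 ± 2.58 and 2.38 ± 1.84, and the difference of 1.79 met the rule in each of the 40 alternatives run, with a range of 1.59 to 2.04 over single libraries left out. Grk2 had 66.8 and 104 CPM (difference -1.11). Rgs4, a regulator of both Gq and Gi/o, had 92.2 CPM in LOC against 159 in MOC (difference -2.53) but a ratio under 2. LOC cell 14 held 66.1% of its LOC reads, and without that cell 32.8 CPM was left in LOC.

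On the supply side of acetylcholine, 6 of 7 genes were measured. The rule called 1 of these for LOC and 1 for MOC, against the 6.07% and 5.67% of all genes. Slc18a3, the vesicular transporter, met the rule in LOC, at 299 CPM against 88.2 in MOC. It lies in the Chat gene on the same strand, so reads may be shared. Prima1, which anchors acetylcholinesterase, met it in MOC, at 22.9 CPM against 1.12 in LOC. Ache, the esterase itself, had 870 CPM in LOC and 598 in MOC and was read in 29 of 31 cells.

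**Figure D4:**
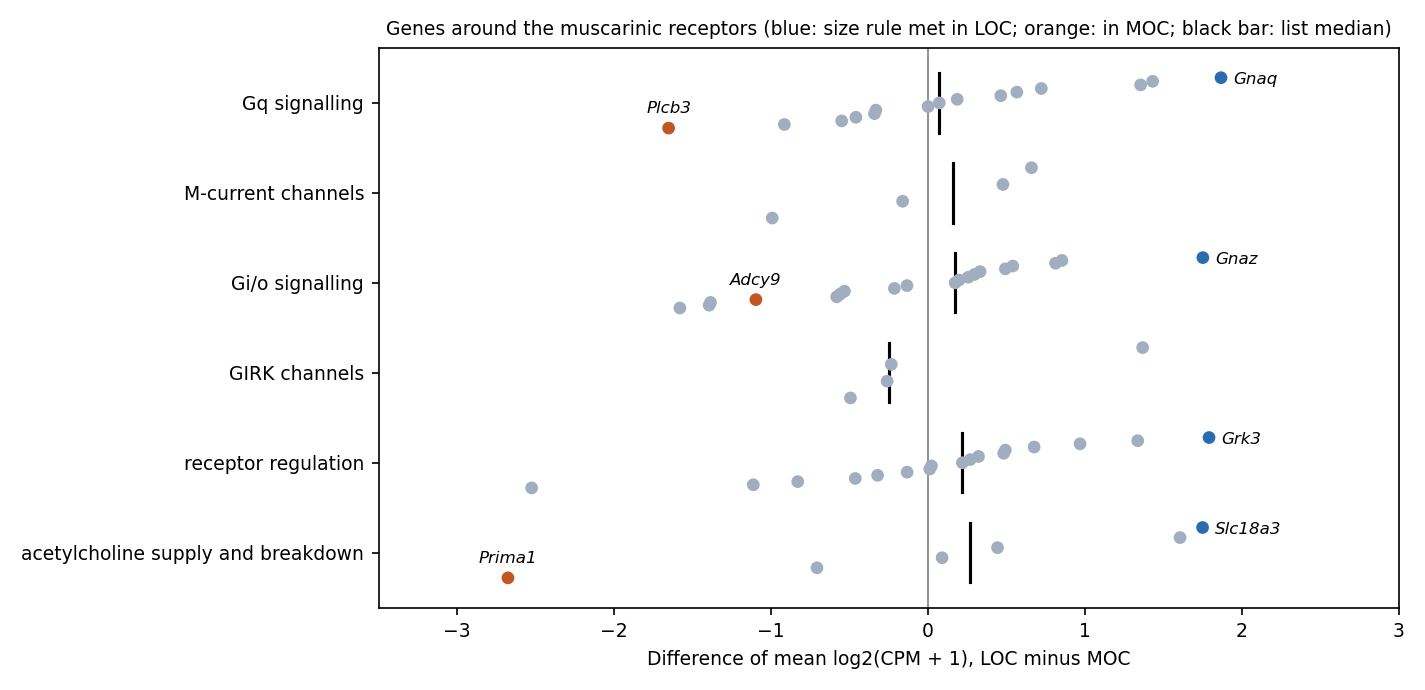
Difference of mean log2(CPM + 1), LOC minus MOC, for the measured genes of 6 lists around the receptors, 1 point per gene, with list medians as black bars. Medians lie between -0.25 and 0.27, and the size rule called 4 genes for LOC and 3 for MOC. Of all measured genes it called 6.07% and 5.67%.

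RNA of other cells was present to varying degrees. The 8 oligodendrocyte markers summed to between 22.7 and 238146 CPM in LOC and between 358 and 123000 CPM in MOC. The 10 microglial markers summed to between 31.1 and 2172 CPM in LOC and between 40.7 and 11107 CPM in MOC, and the 8 astrocyte markers to between 521 and 3558 CPM and between 376 and 3047 CPM. The difference of Chrm2 was -0.35 once MOC cells 7, 8 and 12 were left out, the 3 with most microglial marker reads, which held 0, 0 and 4 reads of it. Chrm4 met the rule, at -1.02, without the 6 libraries above 10% oligodendrocyte markers. The part of these cells in the receptor levels was not tested. Fewer receptor transcripts in a neuron and a smaller share of the neuron's RNA in its library cannot be told apart.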

How the data were processed

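Raw read counts, deposited by the authors with genes in rows and cells in columns, were the main data. A deposited table of normalized signal for 20784 genes, scaled by TMM according to its own name, served as an alternative only. Tools listed in the submitters' processing notes are limma, edgeR, DESeq2, STAR 2.5.2 and bcl2fastq, with mm10 and GRCm38 as builds and no roles stated. For the counting tool and annotation, no name was given in the sources used here. CPM took the total over mouse genes as library size, leaving out 19 added sequences. Measured genes, 17754 of the 37546 with any read, held reads in 25% or more of either group's cells. Summed counts carry exact 95% Poisson intervals and shares exact Clopper-Pearson intervals. Both cover counting error only, since Smart-seq2 reads have no molecular identifiers. Differences are of mean log2(CPM + 1), LOC minus MOC, a scale that understates those of low genes. The ratio of the size rule took 3 counts over a group as its lowest value. Lengths, overlaps and coordinates came from GENCODE M21 (GRCm38). Groups were taken from the labels. Doublets were not called, since each cell was aspirated singly, and markers of other cells are given instead. The receptors, gene lists and restrictions of libraries were chosen with earlier results of these data known. The named genes were the 5 receptors, genes overlapping them, up to 4 genes per list past the size rule, and for each receptor the 3 genes of highest Spearman's rho. The leading receptor per kilobase, and levels per kilobase or in cholinergic-poor libraries without LOC cell 14 or MOC cell 13, were added after seeing the data. Other list genes were named for their role, after their values were seen. Some list genes are not reported here by name. edgeR 4.0.16 (R 4.3.3) gave TMM sizes, and the rest was computed in Python 3.11.15. Only the size rule was tried on simulated data, with changes placed in genes of higher level than the receptors. How it behaves for genes as low as these was not tested.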

Additional observations from a re-analysis of the deposited data

How the results depend on the processing

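Of the receptor differences, that of Chrm3 lost the size rule with a pseudocount of 10 (-0.43), after thinning each cell to 100000 counts (-0.81), in libraries with at least 10 cholinergic reads (-0.88) and without those with at most 1, a restriction chosen after seeing the data (-0.97), and ranged from -1.34 to -0.81 over single libraries left out. Chrm4 came to meet it in MOC with summed counts (-2.29), with at least 10 cholinergic reads (-1.45), without libraries with at most 1 (-1.15) and without libraries above 10% oligodendrocyte markers (-1.02), and ranged from -1.005 to -0.43 over single libraries, with the -1.005 without LOC cell 14. Chrm5 met it with summed counts (-1.06). Chrm1 met it without LOC cell 14, ranged from -1.26 to -0.28 over single libraries and was 0.06 with summed counts. The Gq-coupled sum met the rule with at least 10 cholinergic reads (-1.58), without libraries with at most 1 (-1.46) and without LOC cell 14 (-1.74), and ranged from -1.74 to -0.84. Single libraries were left out of the full set only, not within a restriction of libraries. The differences of Chrm2 and of the Gi/o-coupled sum met the rule in none of the alternatives run. With TMM sizes, the authors' values (which lack Chrm5) or medians over cells no receptor changed its call other than as listed. The cause of these changes was not tested. With 5 reads in place of 1, the share of cells was 11.1% in LOC and 38.5% in MOC for Chrm1, 44.4% and 46.2% for Chrm2, 0% and 23.1% for Chrm3, 5.56% and 30.8% for Chrm4, and 0% and 0% for Chrm5. After thinning, a read was left in 22.2% of LOC and 23.1% of MOC cells for Chrm1, 0% and 15.4% for Chrm3, and 0% and 7.69% for Chrm5. Over all measured genes, a pseudocount of 10 left 370 genes past the rule in LOC and 209 in MOC, in place of 1078 and 1007. Counts of list genes past the rule moved as follows. Apart from the pseudocount of 10, counts over all measured genes are not given for these settings. The list counts therefore cannot be read as results about the lists. With summed counts there were 2 in LOC and 3 in MOC for Gq signalling, 3 in MOC for Gi/o signalling, 1 and 1 for GIRK channels, 2 and 3 for receptor regulation and 2 in MOC for acetylcholine supply. With a pseudocount of 10 there were 0 in MOC for Gq and for Gi/o signalling. With TMM sizes there were 0 in LOC for Gq and 2 in MOC for Gi/o signalling. After thinning there were 2 in LOC for Gi/o signalling and 2 in LOC and 1 in MOC for receptor regulation. In libraries with at least 10 cholinergic reads there were 1 in MOC for M-current channels, 3 in LOC for Gi/o signalling, 1 in LOC for GIRK channels and 3 and 3 for receptor regulation. Without libraries with at most 1 cholinergic read there were 1 in MOC for M-current channels, 2 in LOC for Gi/o signalling, 1 in LOC for GIRK channels and 1 in MOC for receptor regulation. Without the 3 libraries highest in microglial markers there were 0 in LOC and 2 in MOC for Gq signalling, 2 in LOC for Gi/o signalling, 2 and 1 for receptor regulation and 0 in LOC for acetylcholine supply. Without libraries above 10% oligodendrocyte markers there were 2 in MOC for Gi/o signalling. List counts were not recomputed with medians over cells, with the authors' values or with single libraries left out. No paired analysis was possible because each group is 1 sample, no test was run, and the cell numbers in the labels do not pair LOC with MOC cells.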
